A study of Rattus norvegicus with 399 samples.

Results

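The genes described here encode parts of the mitochondrial respiratory chain and ATP synthase, the mitochondrial ribosome, the protein import machinery and the SLC25 family of inner membrane carriers. They were chosen by name, as probes of the Rat S1500+ TempO-Seq panel whose gene symbol starts with Nduf, Sdha to Sdhd, Uqcr, Cox and a digit, Atp5, Mrpl, Mrps, Timm, Tomm or Slc25. Earlier results of these data were known when this rule was set. The rule found 27 probes for 25 genes among the 2654 probes (2603 symbols) of the table. Complex I was represented by Ndufv3, Ndufb8 and the assembly factor Ndufaf4, complex II by Sdha and Sdhb, complex IV by Cox8b alone, and complex III by no probe. ATP synthase was represented by Atp5a1, Atp5c1, Atp5l and Atp5s, the ribosome by Mrpl12, Mrpl19, Mrps2 and Mrps16, import by Timm9 (3 probes), Timm22, Tomm34 and Tomm70a, and the carriers by Slc25a4, Slc25a13, Slc25a14, Slc25a24, Slc25a27, Slc25a30 and Slc25a46.

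The rats were female Sprague-Dawley animals of 9 weeks, and heart, kidney, liver (left lobe), lung and whole ovaries were taken on study day 5. They had received 1,2-dichlorobenzene (1,2-DCB) at 1, 10, 30, 100, 250 or 500 ppm, or 1,4-dichlorobenzene (1,4-DCB), the isomer with its chlorine atoms on opposite ring carbons, at 1, 10, 50, 150, 400 or 800 ppm, and each compound had its own 0 ppm rats. The sources used here do not name the exposure route. TempO-Seq counts ligated pairs of detector oligonucleotides at a chosen stretch of each transcript. Of 399 libraries, 390 were used, and the 9 that the submitters marked with a QC issue were left out. The issue was low sequencing depth in 5, a low alignment rate in 2 and an outlying profile in 2. A group held 10 rats at 0 ppm and 5 at each concentration, except for 9 controls in the 1,2-DCB kidney, 8 in the 1,4-DCB lung, and 3 or 4 exposed rats in 6 groups of kidney and lung. Between 1.2 and 69.8 M counts (median 22.6 M) lay behind each library, with the highest medians in liver (39.5 and 45.2 M).

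Levels are given as CPM, each count divided by its library's total in M counts after scaling by the trimmed mean of M values (TMM). A change is a log2 fold change against the compound's own 0 ppm rats with its standard error (SE), and it is called where the Benjamini-Hochberg adjusted p of edgeR's quasi-likelihood test, taken over all probes tested, is below 0.05. Within a tissue each p-value measures the spread between rats, which the labels name one by one. In the joint fits over several tissues, libraries of the same rat entered as separate samples, and the rat was a block in an alternative only. Of the 27 probes, Slc25a14 passed the filter on low counts in 0 of 10 fits (a fit being 1 tissue and compound), Timm9 probe 32659 in 3, Atp5a1 in 6 and Cox8b in 8, and the others in all 10. Tissue pieces hold many cell types, and fewer cells of a type cannot be told apart from less RNA per cell.

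Mitochondria make most of a cell's ATP. Complexes I and II pass electrons from NADH and succinate towards complex IV, the protons pumped on the way drive ATP synthase, and most subunits are nuclear products that enter through the TOM pores of the outer membrane and the TIM complexes of the inner one. SLC25 carriers exchange nucleotides, amino acids and ions across the inner membrane. Heart muscle and kidney tubules are rich in mitochondria, while the hepatocyte also uses them for urea synthesis, ketogenesis and gluconeogenesis. Nuclear respiratory factor 1 (NRF1) and the ETS factor GABP bind the promoters of many such genes.

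Promoter windows of RefSeq (assembly GRCr8, from 250 bases before to 50 after the start site) were found for 21 of the 25 genes, of which 20 matched by current and 5 by older symbol in the RefSeq tables. The NRF1 motif, searched on both strands like the others, was present in 4 of the 21 windows (19%), against 4.25% of 33469 promoter windows: Ndufv3, Ndufaf4, Atp5c1 and Sdha, which held it 3 times. The GABP motif CCGGAAGT was in 2 (9.52%, against 3.81%), Atp5a1 and Tomm70a. A CCAAT box was in 7 (33.3%, against 37.5%). The estrogen-related receptor motif TCAAGGTCA (0.433% of all windows), the antioxidant response motif TGACNNNGC (12.1%) and the PPAR direct repeat (0.0538%) matched 0 of 21. The members were limited to protein-coding genes with 1 window each, while the 33469 windows were taken without that limit. The shares thus come from unlike sets. A match is a description of the letters and not a bound site. The windows of 5 genes on which the results turn are printed 5′ to 3′, with NRF1 matches in capitals, so that those with the motif (Ndufv3, Sdha and Atp5c1) can be set beside those without it (Mrpl12 and Slc25a13).
Ndufv3, chr20:9613536-9613835, + strand: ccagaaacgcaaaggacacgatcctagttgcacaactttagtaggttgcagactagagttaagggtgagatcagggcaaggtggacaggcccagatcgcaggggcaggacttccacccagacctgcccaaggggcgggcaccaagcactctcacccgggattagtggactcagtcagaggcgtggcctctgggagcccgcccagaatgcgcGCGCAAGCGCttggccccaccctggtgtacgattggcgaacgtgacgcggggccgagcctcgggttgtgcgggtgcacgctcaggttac
Sdha, chr1:30764303-30764602, + strand: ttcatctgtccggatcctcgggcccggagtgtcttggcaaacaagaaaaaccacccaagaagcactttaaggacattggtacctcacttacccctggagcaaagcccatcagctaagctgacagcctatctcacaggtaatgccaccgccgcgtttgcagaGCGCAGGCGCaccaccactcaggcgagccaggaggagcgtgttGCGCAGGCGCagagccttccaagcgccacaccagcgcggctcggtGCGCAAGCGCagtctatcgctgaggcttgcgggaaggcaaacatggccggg
Atp5c1 (RefSeq Atp5f1c), chr17:73333435-73333734, + strand: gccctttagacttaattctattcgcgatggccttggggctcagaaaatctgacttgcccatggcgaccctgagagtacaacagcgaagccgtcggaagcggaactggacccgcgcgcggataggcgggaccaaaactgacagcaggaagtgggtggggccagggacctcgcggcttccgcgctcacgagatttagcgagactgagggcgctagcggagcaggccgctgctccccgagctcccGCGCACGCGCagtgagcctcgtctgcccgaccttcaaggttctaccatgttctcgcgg
Mrpl12, chr10:106256496-106256795, + strand: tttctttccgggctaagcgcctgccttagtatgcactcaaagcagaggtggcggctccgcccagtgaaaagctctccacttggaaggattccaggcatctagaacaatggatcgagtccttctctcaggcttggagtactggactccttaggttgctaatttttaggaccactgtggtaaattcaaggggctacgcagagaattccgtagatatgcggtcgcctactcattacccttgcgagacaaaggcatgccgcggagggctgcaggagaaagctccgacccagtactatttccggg
Slc25a13, chr4:35328311-35328610, - strand: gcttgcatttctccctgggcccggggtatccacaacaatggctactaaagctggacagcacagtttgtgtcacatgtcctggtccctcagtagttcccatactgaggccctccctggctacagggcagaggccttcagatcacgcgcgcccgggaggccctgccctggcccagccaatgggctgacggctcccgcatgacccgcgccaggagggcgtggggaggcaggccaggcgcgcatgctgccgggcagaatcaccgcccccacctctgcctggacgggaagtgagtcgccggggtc

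In rats at 0 ppm most of these genes were highest in the heart. On a scale shared by the tissues, each tissue was compared with the mean of the other 4, and of 25 members tested 21 were higher and 2 lower in the heart in the 1,2-DCB controls, and again 21 and 2 in the separate 1,4-DCB controls. Tissues differ in most probes of the panel (75.1% and 72.9% of all probes called in the heart comparisons, 32.2% and 31.3% higher), so the direction is the more informative part: the median difference of the members was 1.33 and 1.43 log2 units, against -0.22 and -0.25 over all probes tested. Kidney had 17 higher and 1 lower, then 16 and 3 (74.6% and 75.4% called). Lung stood at the other end with 1 higher and 21 lower, then 2 and 20 (74.6% and 74.9%), and ovary had 3 and 18, then 2 and 19 (74.7% and 73.6%). Liver was mixed, with 4 higher and 11 lower, then 5 and 10 (80.5% and 80.1%), and with DESeq2 size factors 8 and 7, then 6 and 9.

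Several carriers departed from this order, here too on the scale shared by the tissues. CPM on that scale differ from the CPM scaled within 1 tissue that later paragraphs give, and in liver they are much higher. The order of the tissues therefore rests on the shared scaling. Slc25a4, the ADP/ATP translocase of heart and muscle, had a mean of 6589 ± 852 CPM (SD, n = 10) in the heart of the 1,2-DCB controls and 8.56 ± 1.39 in their liver, with no overlap. Slc25a13 (citrin), the aspartate/glutamate exchanger of the malate-aspartate shuttle and of urea synthesis, was highest in liver at 725.6 ± 109.5 CPM, followed by kidney at 233.1 ± 22.8 (n = 9) and heart at 214 ± 24.4, which overlap, then ovary at 26.5 ± 3.03 and lung at 18.1 ± 2.98. Slc25a24, a calcium-regulated ATP-Mg/phosphate carrier, had nearly the reverse order, with 37.3 ± 5.80 in lung and 30.0 ± 7.23 in ovary, which overlap, and the lowest value, 2.54 ± 0.841, in liver. Ndufv3, a subunit of the NADH-oxidising arm of complex I, was highest in kidney (547.6 ± 37.03 CPM), and the ranges of the other 4 tissues (means from 238.2 to 294.1) overlapped. Cox8b, the muscle and brown fat form of a small complex IV subunit, had a mean of 1523 ± 284 CPM in heart, while 8 of 10 livers had 0 counts.

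**Figure D1:**
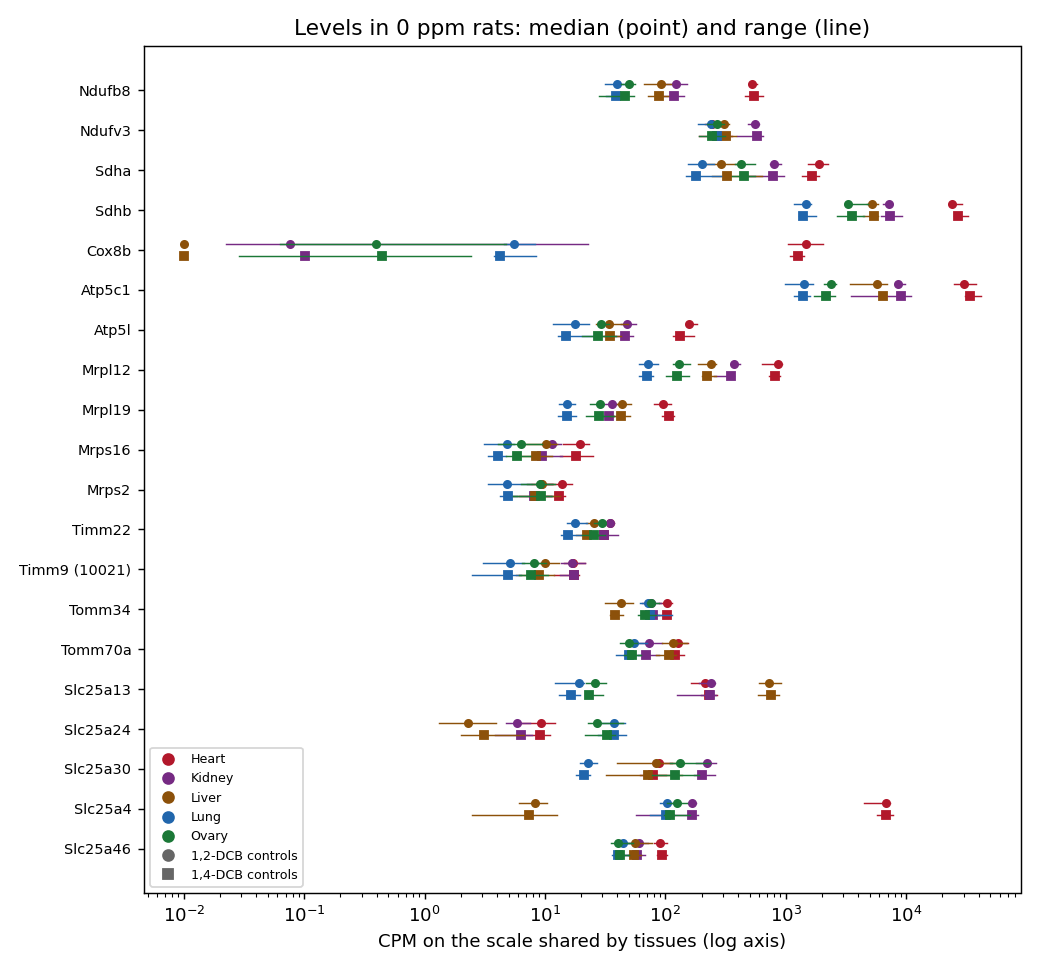
Levels in the 0 ppm rats of members whose mean reached 10 CPM in any tissue, on a log axis of CPM shared by the tissues, with the median as a point, the range as a line (where no rat is at 0), circles for the 1,2-DCB and squares for the 1,4-DCB controls, and a median of 0 drawn at the left edge. Heart is the rightmost tissue for most genes, liver for Slc25a13 (mean 725.6 CPM) and kidney for Ndufv3 (mean 547.6 CPM).

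The most extensive change was in the liver at 500 ppm of 1,2-DCB, where 14 of 23 members tested rose and 3 fell. Most of the panel changed there, with 67.8% of all probes called, 35% higher and 32.7% lower, so the number of calls is near the background and the split is not: the median change of the members was 0.57 log2 units, against 0.03 over all probes tested. The genes that rose came from complex I (Ndufv3, Ndufaf4), the mitochondrial ribosome (Mrpl12, Mrpl19, Mrps2), import (Tomm70a, Tomm34, Timm22 and Timm9 by 2 probes) and the carriers (Slc25a24, Slc25a4, Slc25a46, Slc25a27). Slc25a13 fell. On the main scale Sdhb and Atp5c1 were not called, and Ndufb8 and Atp5l also fell. On another scale given below Sdhb and Atp5c1 were called higher, Ndufb8 lay above 0 and Atp5l just under 0.

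Ndufv3 had from 43.9 to 59.5 CPM (median 53.6) in the 10 control livers and 96.0, 102.2, 85.5, 109.9 and 91.1 CPM in the exposed ones. All 5 exposed rats lay above every control, and the change was 0.90 (SE 0.077, adjusted p = 3.26e-13). Its rise was already called at 100 ppm, where the 5 rats had 60.7, 61.8, 66.1, 69.4 and 69.6 CPM (0.34, SE 0.078, adjusted p = 0.017), and at 250 ppm with 68.6 to 75.8 CPM (0.50, SE 0.078, adjusted p = 4.85e-06), again with all 5 above every control in both groups. Mrpl12, a large-subunit ribosomal protein that also binds the mitochondrial RNA polymerase, had from 30.9 to 46.4 CPM (median 42.1) in controls and 72.1, 69.1, 72.5, 81.3 and 71.3 CPM at 500 ppm. The groups do not overlap, and the change was 0.83 (SE 0.090, adjusted p = 1.91e-10). At 250 ppm Mrpl12 had a mean of 55.6 ± 5.24 CPM (n = 5) and a change of 0.43 (adjusted p = 0.000361), with all 5 rats above the controls.

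Mrpl19, another protein of the large ribosomal subunit, had 6.79 to 8.92 CPM in controls (median 7.82) and 10.4, 16.1, 13.6, 14.3 and 13.5 CPM at 500 ppm, with a change of 0.78 (SE 0.10, adjusted p = 1.02e-08). Tomm70a, the outer membrane receptor for carrier precursors, had 15.96 to 25.4 CPM in controls (median 20.5) and 30.1, 33.98, 34.01, 33.6 and 42.7 CPM when exposed (0.77, SE 0.12, adjusted p = 3.86e-07). Tomm34, a cytosolic co-chaperone of import, had 5.45 to 9.15 CPM (median 7.62) against 12.3, 11.6, 10.0, 10.1 and 11.2 CPM (0.57, SE 0.11, adjusted p = 1.91e-05). Slc25a46, an outer membrane protein of mitochondrial shape, had 8.06 to 13.6 CPM (median 9.65) against 14.8 to 15.3 CPM (0.55, SE 0.11, adjusted p = 3.64e-05). In each of these 4 genes every exposed rat was above every control. The inner membrane import genes rose as well, with 0.94 and 1.53 for the 2 Timm9 probes and 0.25 for Timm22 (adjusted p = 0.0257, and 0.0592 without rat F604), whose groups overlap.

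The carriers moved apart from each other in this liver. Slc25a13 had 102.1 to 159.2 CPM in controls (median 125.7) and 92.4, 66.5, 68.35, 58.02 and 60.2 CPM at 500 ppm, all 5 below every control, and fell by 0.89 log2 units (SE 0.11, adjusted p = 2.93e-09). Slc25a24, which is scarce in control liver, rose from 0.446 ± 0.148 CPM (n = 10, highest 0.695) to 2.28 ± 1.03 (n = 5, lowest 1.11), a change of 2.34 (SE 0.29, adjusted p = 3.48e-09) with no overlap. Slc25a4 rose from 1.51 ± 0.250 to 2.85 ± 0.856 CPM (0.92, adjusted p = 1.90e-06, 4 of 5 rats above every control), far below its level in heart. On the scale shared by the control tissues, Slc25a13 has its highest level in liver, and Slc25a24 and Slc25a4 their lowest.

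On the main scale complex II and ATP synthase did not follow the genes that rose, while on another scale, given below, Sdhb and Atp5c1 were called higher. Sdhb, the iron-sulfur subunit of succinate dehydrogenase, had 864 to 1000 CPM (median 924) in controls and 869, 899, 864, 826 and 754 CPM at 500 ppm (-0.14, SE 0.067, adjusted p = 0.0652). Sdha, the flavoprotein subunit of the same enzyme, had means of 53.3 and 47.4 CPM (-0.17, adjusted p = 0.333), and Atp5c1, the gamma subunit of the ATP synthase rotor, 989 and 1028 CPM (0.06, adjusted p = 0.647). Ndufb8, an accessory subunit of complex I, had 11.7 to 19.4 CPM (median 16.4) in controls against 11.95 to 15 CPM, which overlap, and on the main scale it fell by 0.28 (SE 0.093, adjusted p = 0.00893, and 0.0502 with the exposed rats and controls alone), as did Atp5l by 0.44 (adjusted p = 0.0154, and 0.0713 without rat F605). The sign of Ndufb8 and the size of both changes depend on the scaling: the 489 probes at a mean of 20 CPM or more had a median change of -0.38 on the main scale, and when the scale was set from them alone every fold was higher by 0.37, which moved Ndufb8 to 0.10, Atp5l to -0.06 and 16 of 23 members above 0 to 20 of 23. Refitted on those probes, Sdhb had a change of 0.24 (adjusted p = 0.000399), Atp5c1 0.42 (adjusted p = 7.59e-05), Sdha 0.20 (adjusted p = 0.236) and Slc25a13 still -0.52, while the rises of Ndufv3 (1.28), Mrpl12 (1.21) and Tomm70a (1.15) grew.

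Other cell types and other mitochondrial genes give the setting of these values, here on the main scale. On it 67.8% of all probes were called (35% higher, 32.7% lower). On the other scale every fold would be higher by 0.37, so the counts of rises and falls below hold for the main scale only. Of 11 hepatocyte markers 1 rose and 9 fell, although their summed level overlapped between groups (489834 to 717504 CPM in controls, 481978 to 603102 when exposed). Fibroblast markers summed to 175.2 to 281.4 CPM in controls and 70.04 to 120.3 when exposed, and macrophage and neutrophil markers to 45.02 to 68.5 and 22.98 to 33.8, with no overlap, and their part in the results was not tested. Among beta oxidation genes 4 of 14 rose and 7 fell, with Cpt2, the inner membrane acylcarnitine enzyme, at 0.92, Acadm, a medium-chain dehydrogenase, at -0.86 and Hadh at -1.27. Of 5 electron carrier and assembly genes tested 3 fell, Etfb (-0.57), Nnt (-0.58) and Etfdh (-0.53), which hand electrons from fatty acids to the chain or hydride to NADP, and these falls would be smaller by 0.37 on the other scale. Chaperones and proteases split into 3 higher and 2 lower of 5, among them the folding chaperone Hspd1 (0.96) and the protease Clpx (-1.35). The tricarboxylic acid cycle list had 2 higher and 3 lower of 8 (Idh3a 0.95, Pdk1 -1.19), biogenesis genes 0 and 1 of 4 (Polg2 -1.07), antioxidant enzymes 1 and 2 of 5 (Gpx1 5.14 to 1.28 CPM), and dynamics genes 5 and 2 of 8 (Vdac2 0.83, Dnm1l 1.02).

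**Figure D2:**
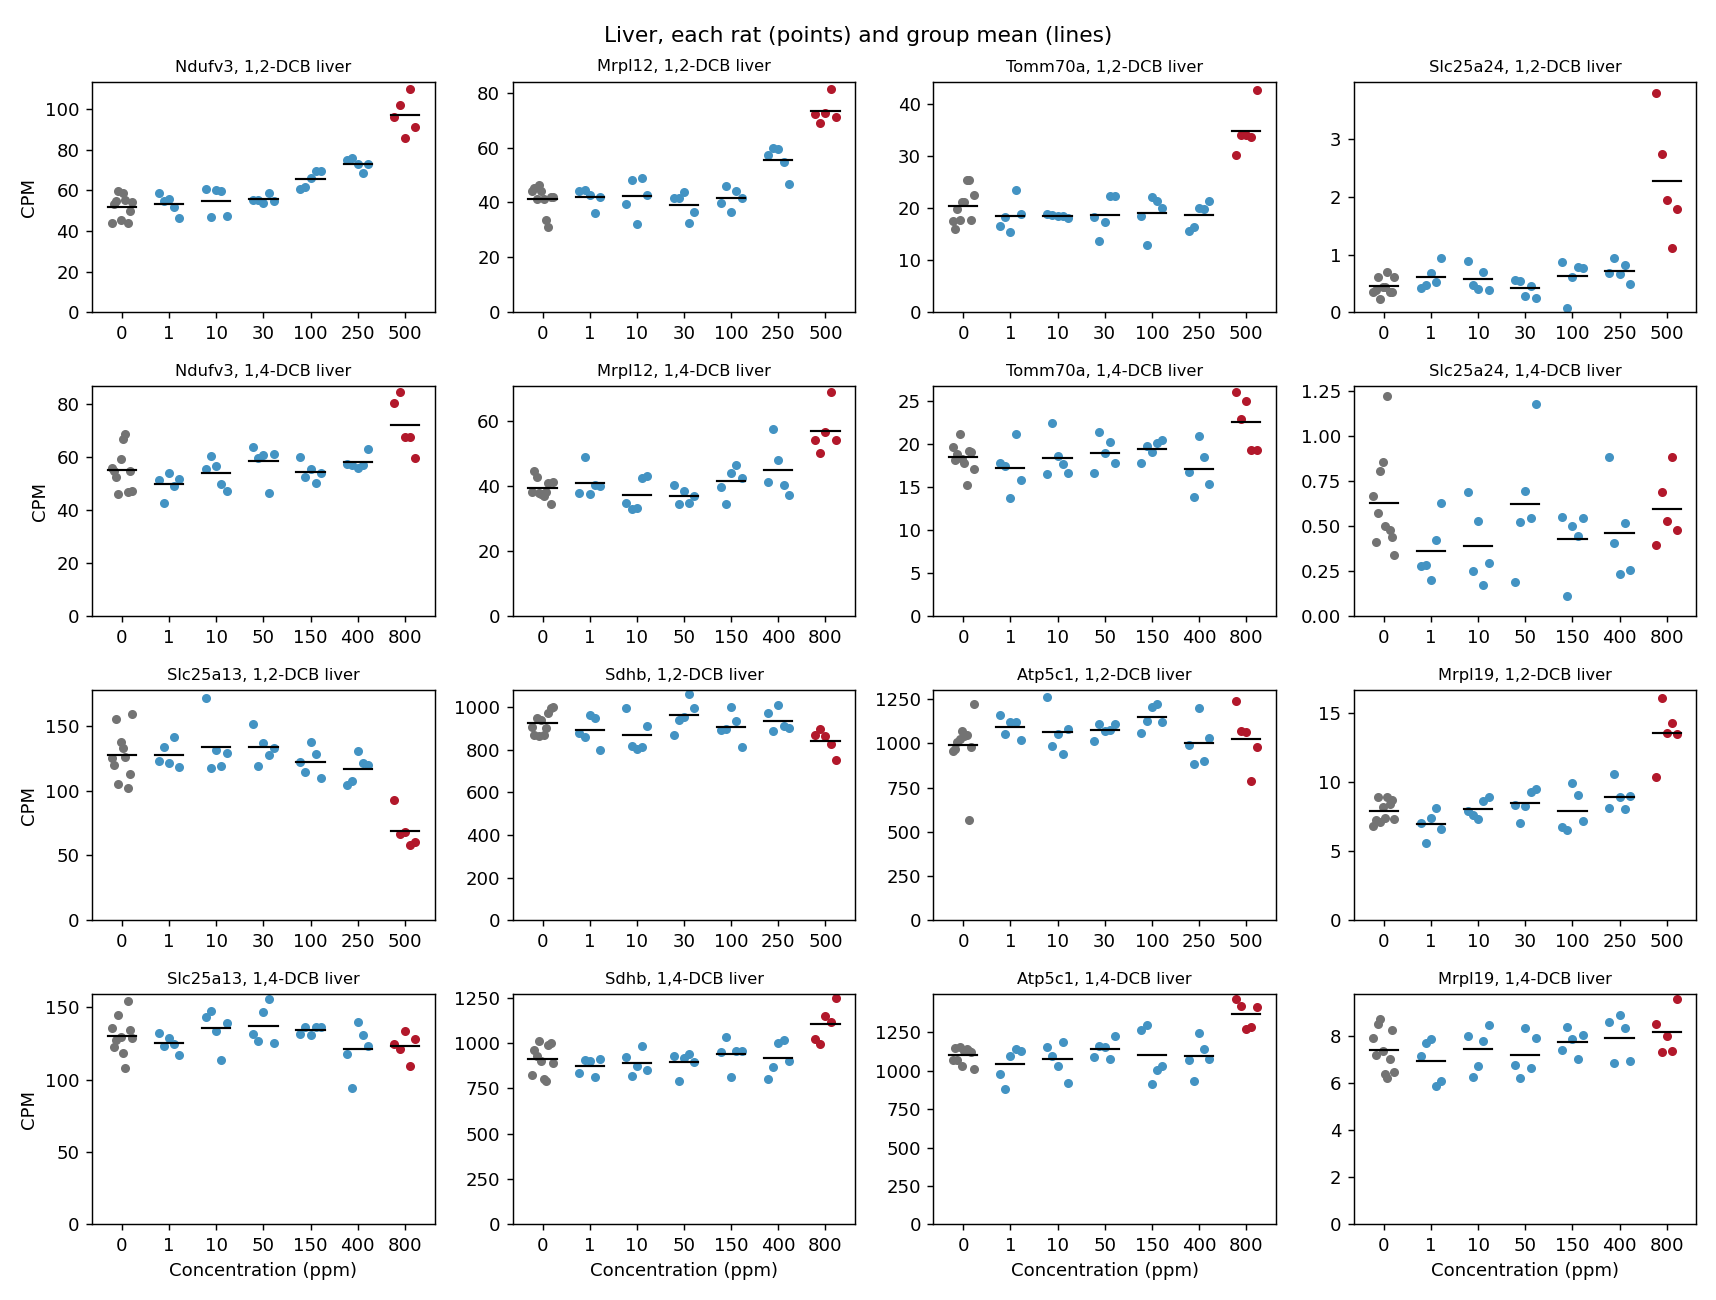
CPM of 8 members in the liver of every used rat at each concentration (ppm), for both compounds, with grey points for 0 ppm, red points for the top concentration and lines for group means. Ndufv3, Mrpl12, Tomm70a, Mrpl19 and Slc25a24 separate upward at 500 ppm of 1,2-DCB and Slc25a13 downward (fell by 0.89), while Sdhb and Atp5c1 shift upward at 800 ppm of 1,4-DCB. On another scaling given in the text Sdhb and Atp5c1 are also called higher in the 1,2-DCB liver.

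At 800 ppm of 1,4-DCB, 9 of 23 members rose in the liver and 0 fell, where 34.9% of all probes were called (19.5% higher, 15.4% lower), and the median change was 0.29 against 0.00 over all probes. Ndufv3, Mrpl12, Tomm70a, Timm22 and Timm9 probe 10020 were called higher with both isomers. Mrpl12 had 34.6 to 44.8 CPM (median 38.2) in controls and 54.3, 50.4, 56.6, 69.02 and 54.4 CPM when exposed, all above the controls (0.53, SE 0.087, adjusted p = 5.63e-06). Ndufv3 had 45.96 to 68.7 CPM (median 54.7) against 80.4, 84.6, 67.7, 67.5 and 59.5 CPM, with overlap (0.38, SE 0.088, adjusted p = 0.000687).

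Sdhb of complex II and Atp5c1 of ATP synthase were among the genes that rose. Atp5c1 had 1011 to 1158 CPM (median 1125) in controls and 1469, 1420, 1273, 1285 and 1417 CPM at 800 ppm, with no overlap (0.32, SE 0.074, adjusted p = 0.000788). Sdhb had 794 to 1011 CPM (median 915) against 1021, 993, 1149, 1119 and 1247 CPM, 4 of 5 above every control (0.28, SE 0.069, adjusted p = 0.00142). Tomm70a had 15.3 to 21.2 CPM (median 18.6) against 26.1, 22.95, 24.9, 19.3 and 19.3 CPM (0.29, SE 0.093, adjusted p = 0.0139), a call that was lost without rat F601, F602 or F603 (adjusted p up to 0.0909). Below 10 CPM, Timm9 probe 10020 (1.02), Timm22 (0.32), Mrps16 (0.40) and Atp5l (0.34, adjusted p = 0.0462) rose, and the last was lost in 10 of 22 alternative analyses. Slc25a13 (-0.08, adjusted p = 0.455), Slc25a24 (-0.09, adjusted p = 0.879) and Sdha (0.44, adjusted p = 0.0553) were not called.

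Several of the neighbouring mitochondrial lists had more rises than falls in this liver, where 34.9% of all probes were called (19.5% higher). Beta oxidation genes had 8 higher and 1 lower of 14 (Cpt2 1.02, Decr1 0.63, Acadl 0.59), tricarboxylic acid cycle genes 4 and 1 of 8 (Idh3a 0.37, Dld 0.34), chaperones 3 and 0 of 5 (Hspd1 0.70, Dnaja3 0.50, Trap1 0.32) and antioxidant enzymes 4 and 1 of 5, led by the superoxide dismutase Sod2 (0.64) and the peroxiredoxin Prdx3 (0.56). None of 5 electron carrier genes was called, and among dynamics genes the pore Vdac1 (0.36) was called. Hepatocyte markers had 1 higher and 4 lower of 11, with overlapping sums (477631 to 553295 CPM against 458484 to 630887). Fibroblast markers summed to 181.0 to 239.0 CPM in controls and 115.2 to 155.3 when exposed, with no overlap, and their part in the results was not tested.

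**Figure D3:**
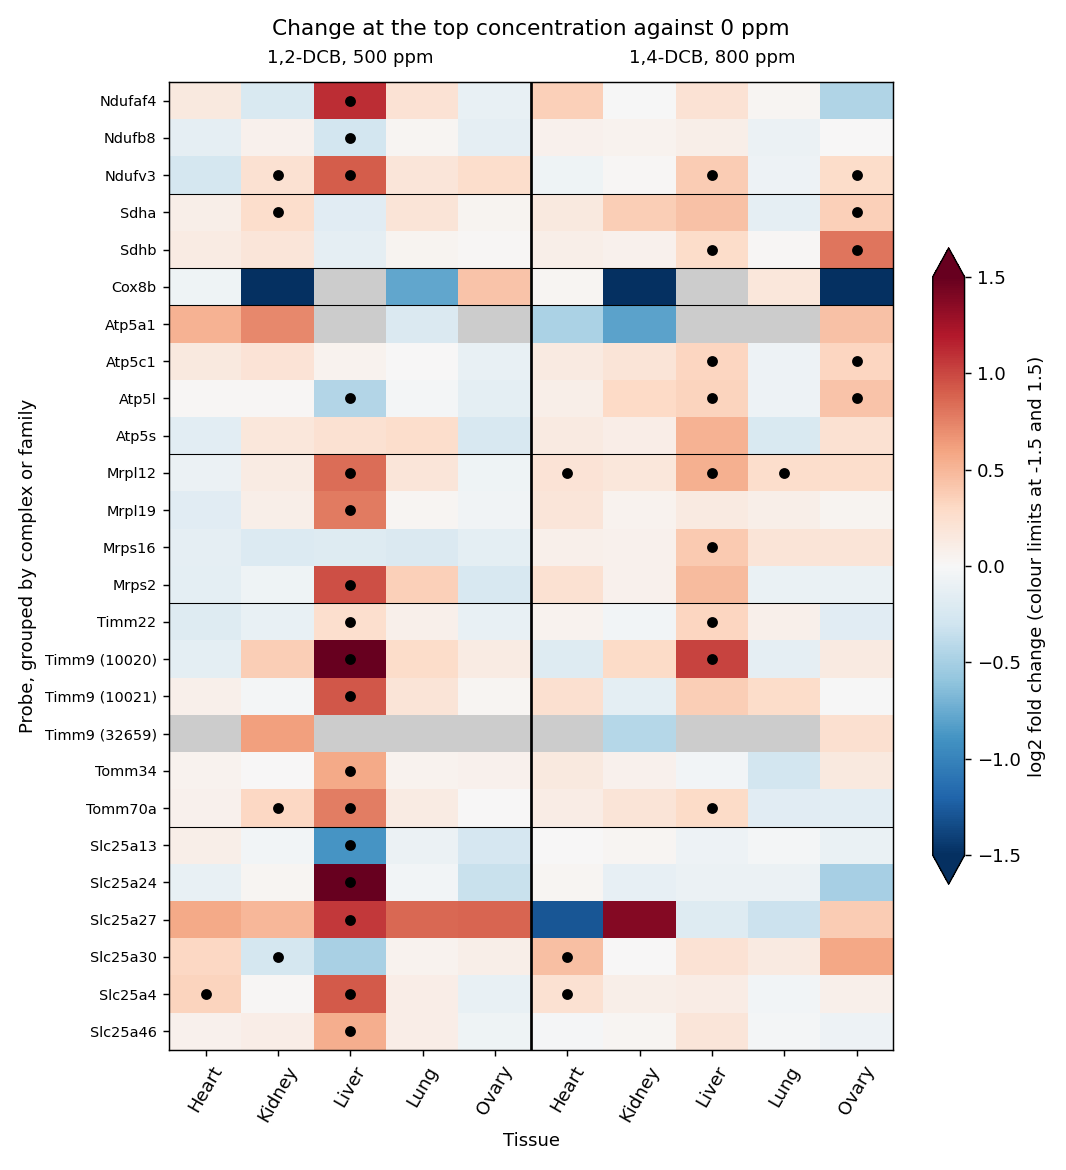
Log2 fold change against 0 ppm at the top concentration for the members tested, by tissue and compound, with red higher, blue lower, grey not tested and a black dot for an adjusted p below 0.05. Dots gather in the liver columns (17 with 1,2-DCB and 9 with 1,4-DCB), and on another scaling given in the text Ndufb8 changes sign in the 1,2-DCB liver.

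In the ovary, 5 of 26 members rose at 800 ppm of 1,4-DCB and 0 fell, against 8.47% of all probes called (4.23% in each direction), and the median change was 0.14 against 0.00. All 5 encode subunits of the respiratory chain or ATP synthase. Of the same families Ndufb8 (0.01), Ndufaf4 (-0.46), Atp5s (0.23), Atp5a1 (0.44) and Cox8b (-1.81) were not called. Atp5a1 and Cox8b are scarce in ovary. Sdhb had 6526 to 10768 CPM (median 8735) in controls and 11876, 18403, 16366, 13771 and 14152 CPM when exposed, with no overlap (0.80, SE 0.14, adjusted p = 0.000307), and it was called in all 23 alternative analyses. Its change at the 5 lower concentrations lay between -0.05 and 0.17. Sdha had 882 to 1342 CPM (median 1090) against 1384, 1669, 1459, 1190 and 1306 CPM (0.36, SE 0.093, adjusted p = 0.0129), and Atp5l, a subunit of the ATP synthase membrane part, 53.2 to 94.8 CPM (median 67.2) against 91.3, 110, 98.5, 79.1 and 92.4 CPM (0.43, SE 0.11, adjusted p = 0.0125), both with overlap. Atp5c1 had 4191 to 6184 CPM (median 5419) against 6097, 7505, 7250, 6442 and 5860 CPM (0.33, SE 0.098, adjusted p = 0.0296), and Ndufv3 465 to 751 CPM (median 601.8) against 666, 812, 749, 791 and 678 CPM (0.27, SE 0.085, adjusted p = 0.0362). These last calls were lost in 6 and 11 of 23 alternatives.

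The count depended on single ovaries: without rat F602, which had the highest level of all 5 genes, 1 member was called (Sdhb). Without F603 or F604, and without control F5 or F7, 3 were called. Markers of granulosa, theca and luteal cells were also read in these ovaries. Of 8 such genes 2 were called higher: Lhcgr, the luteinizing hormone receptor, and Star, which brings cholesterol into mitochondria for steroid synthesis. The summed level of the list was 8719 to 15861 CPM in controls and 14478 to 21738 when exposed, which overlap. Its part in the result was not tested. Of the other mitochondrial lists, Echs1 (0.58), Nnt (0.40) and Prdx3 (0.57) rose. With 1,2-DCB at 500 ppm, edgeR called 0 of 24 members in the ovary (2.91% of all probes), with 3 at an unadjusted p below 0.05, 0 by DESeq2 and 1 by limma voom. Sdhb had no order over the concentrations of that compound: its mean was 7939 ± 1263 CPM in controls, 12576 ± 2107 at 1 ppm (0.66, adjusted p = 0.186), 13423 ± 6134 at 250 ppm (0.76, adjusted p = 0.244) and 8014 ± 1220 at 500 ppm (0.01, adjusted p = 0.985).

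In the heart, where most of these genes are highest, few changed. At 500 ppm of 1,2-DCB 1 of 25 members rose, against 12% of all probes called (5.16% higher), and at 800 ppm of 1,4-DCB 3 rose, against 6.86% (3.07% higher), with 0 lower in both. The ADP/ATP translocase Slc25a4 was the member called with both compounds. It had 5737 to 8925 CPM (median 8564) in the 1,2-DCB controls and 8779, 11036, 10720, 10962 and 10529 CPM at 500 ppm, 4 above every control (0.34, SE 0.10, adjusted p = 0.0217). In the 1,4-DCB rats it had 6622 to 8600 CPM (median 7850) against 10092, 9380, 9174, 9235 and 7943 CPM, again 4 above (0.23, SE 0.067, adjusted p = 0.0266). The first call was lost without rat F602 or F604 (adjusted p up to 0.0717) and the second without F601, F602, F603 or F604 (up to 0.137).

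Slc25a30, a carrier related to the brain uncoupling proteins, rose in the 1,4-DCB heart from 70.6 to 116.2 CPM (median 90.6) to 109.6, 131.1, 127.2, 129.7 and 124.8 CPM (0.45, SE 0.095, adjusted p = 0.00156), and it was called in all 23 alternative analyses. Mrpl12 had 838 to 1016 CPM (median 931) against 1094, 1040, 1128, 1091 and 1028 CPM, with no overlap (0.21, SE 0.059, adjusted p = 0.0261; up to 0.102 without F601, F603 or F604). Sdhb, Atp5c1 and Cox8b were not called at either top concentration: Sdhb changed by 0.12 and 0.08, Atp5c1 by 0.15 and 0.13, and Cox8b by -0.06 and 0.02. Of the other lists, the mitophagy receptor Bnip3 rose from 49.2 to 160 CPM with 1,2-DCB (1.70) and less with 1,4-DCB (0.57), and 1,4-DCB raised Hadhb (0.29), Acadl (0.29), the electron carriers Cycs (0.27) and Etfb (0.18), and Dnaja3 (0.23). Cardiomyocyte markers overlapped in sum at 500 ppm of 1,2-DCB (313948 to 388303 CPM against 268454 to 424345 in controls), a sum made mostly of Myl2 (control mean 331373 CPM). Of these 6 markers Myh7 rose (1.98, adjusted p = 0.000879) and Actc1 fell (-0.52, adjusted p = 0.0188), and the others were not called. Fibroblast markers did not overlap in sum (787 to 1086 CPM against 2145 to 3483), and their part in the Slc25a4 result was not tested.

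**Figure D4:**
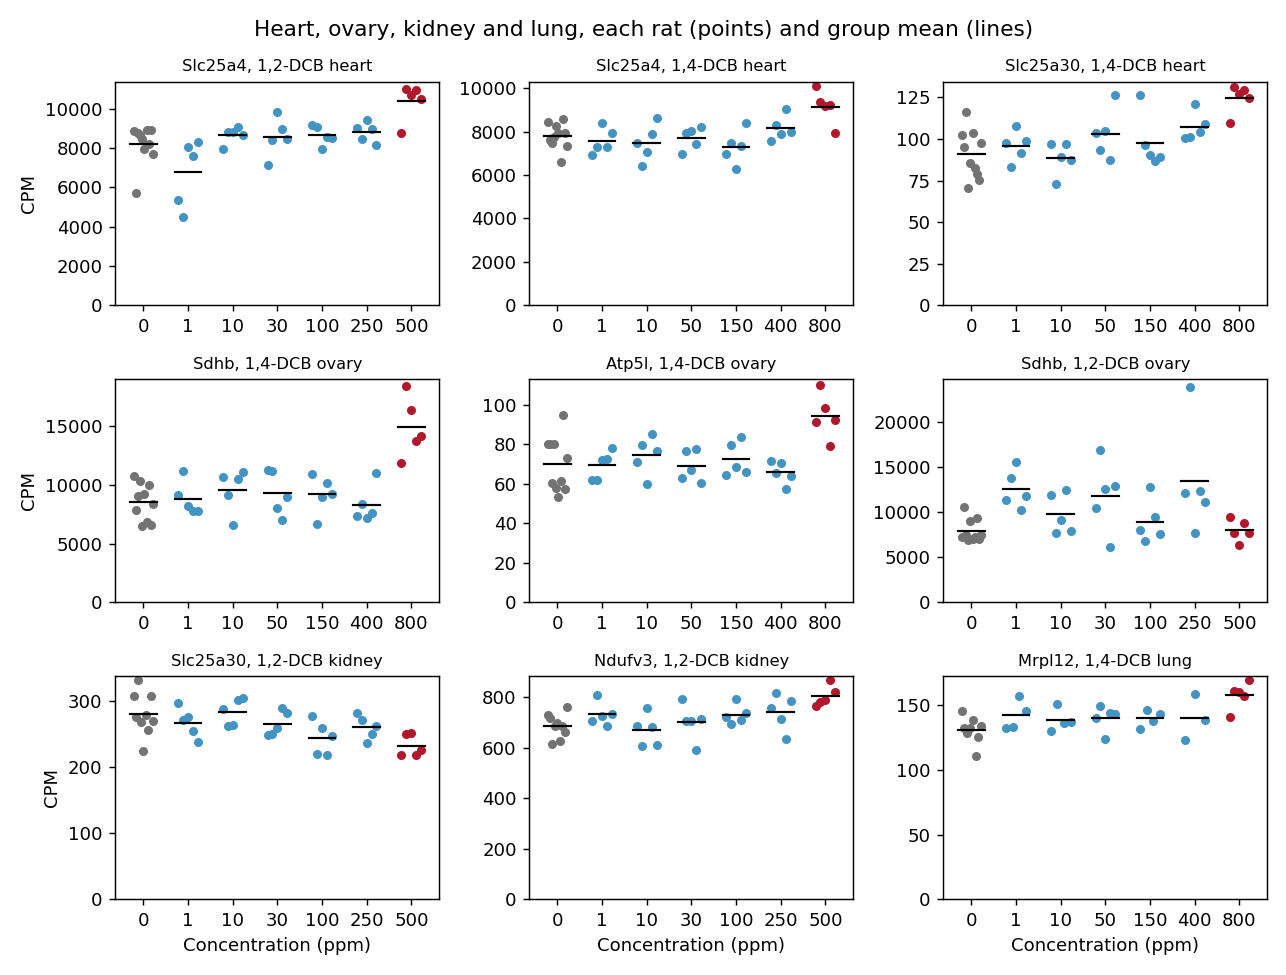
CPM of 6 members in heart, ovary, kidney and lung of every used rat at each concentration (ppm), with grey points for 0 ppm, red for the top concentration and lines for group means. Sdhb in the ovary separates from its controls at 800 ppm of 1,4-DCB (0.80) and not at 500 ppm of 1,2-DCB (0.01), and 2 hearts at 1 ppm of 1,2-DCB are low in Slc25a4 (5338 and 4520 CPM).

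In the kidney, 3 of 26 members rose and 1 fell at 500 ppm of 1,2-DCB, close to the 16.4% of all probes called there (8.72% higher, 7.7% lower). Ndufv3 had 614 to 761 CPM (median 688) in controls and 767, 782, 791, 869 and 820 CPM when exposed, with no overlap (0.23, SE 0.066, adjusted p = 0.0129). Sdha had 918 to 1157 CPM (median 1001) against 1322, 1157, 1157, 1203 and 1257 CPM, every exposed rat at or above the highest control (0.26, SE 0.082, adjusted p = 0.0261). Tomm70a had 71.5 to 116.4 CPM (median 92.2) against 106.5, 107.3, 121.3, 122.9 and 114.2 CPM (0.31, SE 0.094, adjusted p = 0.0199), and Slc25a30 fell from 224 to 332 CPM (median 276) to 218.0, 249.9, 251.4, 218.6 and 225.4 CPM (-0.27, SE 0.074, adjusted p = 0.01), both with overlap. Ndufv3 was lost without rat F604 (adjusted p = 0.0545), Tomm70a without F603 or F604 (up to 0.0629), and Sdha without F601, F605 or control F7 and with the filter at a mean of 20 CPM (up to 0.0758), while the fall of Slc25a30 was not lost in any of 22 alternatives.

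Of the beta oxidation list, 7 of 14 genes were called higher in this kidney (8.72% of all probes) and 0 lower, among them Eci1 (0.95) and Decr1 (0.56). Hspd1 (0.25), Dnaja3 (0.17), Gpx4 (0.29) and Pink1 (0.29) rose by amounts like those of the members, and Oxa1l, which inserts proteins into the inner membrane, fell by 0.39. Of 3 kidney tubule markers Pck1, the gluconeogenic enzyme, rose from 2435 to 11738 CPM (2.27). At 800 ppm of 1,4-DCB, edgeR called 0 of 26 members (5.03% of all probes), with 5 at an unadjusted p below 0.05 and 0 by DESeq2 and by limma voom. Decr1 (0.39) and Acadm (0.30) rose there.

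Cox8b was near 0 in most kidneys and high in 3. Over 39 kidney libraries of each compound its median was 0.152 CPM, while control rat F8 of 1,2-DCB had 28.4, rat F201 at 10 ppm of 1,2-DCB 26.4 and control rat F1 of 1,4-DCB 22.8 CPM. The same libraries were highest in Ucp1, the uncoupling protein of brown fat, with 61.9, 78.1 and 61.1 CPM against medians of 0.121 and 0.0979, and in Adipoq, a fat cell hormone, with values up to 363 and 482 CPM against medians of 31.8 and 27.04. The fitted changes of Cox8b (-2.71 with 1,2-DCB, adjusted p = 0.246, and -2.67 with 1,4-DCB, adjusted p = 0.341) rest on those controls, since the control medians were 0.0951 and 0.128 CPM. The fall of Ucp1 called at 500 ppm of 1,2-DCB (-7.05, adjusted p = 0.0279) is from a control mean of 7.07 CPM in which rat F8 alone had 61.9. The control F1 of 1,4-DCB was also lowest of its group in Atp5c1 (4332 CPM, median 11269), Sdha (538, median 980) and Slc25a4 (70.7, median 207).

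**Figure D5:**
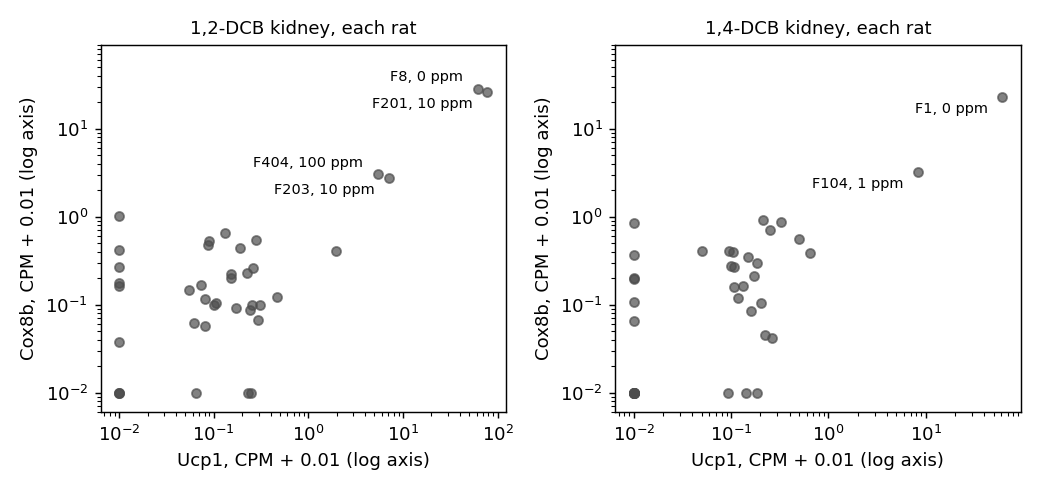
Cox8b against Ucp1 in each kidney library, both as CPM with a small offset on log axes, 1 panel per compound, with the highest rats labelled. The 3 rats with 22.8 CPM or more of Cox8b also hold the highest Ucp1.

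In the lung 1 member was called at the top concentrations. At 500 ppm of 1,2-DCB, edgeR called 0 of 25 members (8.85% of all probes), with 3 at an unadjusted p below 0.05, 0 by DESeq2 and 1 by limma voom. At 800 ppm of 1,4-DCB 1 of 24 rose (5.91% of all probes, 2.87% higher), Mrpl12, which had 110.6 to 145.6 CPM (median 132.7) in 8 controls and 140.8, 161.3, 160.7, 157.4 and 169.5 CPM when exposed, 4 above every control (0.27, SE 0.068, adjusted p = 0.0138). That call was lost without rat F605 and when the marked libraries were added (adjusted p up to 0.165).

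Below the top concentrations few members were called. In the 1,2-DCB liver these were Ndufv3 and Mrpl12 at 250 ppm (2 of 23, both higher, against 24.8% of all probes, 13.5% higher) and Ndufv3 and Sdha at 100 ppm (2 of 23, both higher, against 2.13%, 1.49% higher). Sdha had 70.5, 130, 52.2, 78.2 and 86.6 CPM at 100 ppm against 33.8 to 78.5 in controls (0.65, SE 0.15, adjusted p = 0.0191), 2 of 5 above every control. It had no call at 250 or 500 ppm. At 400 ppm of 1,4-DCB, edgeR called 0 of 23 members in liver (6.44% of all probes), with 3 at an unadjusted p below 0.05 and 0 by DESeq2.

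In the heart at 1 ppm of 1,2-DCB, Mrpl12 was called lower (-0.34, SE 0.10, adjusted p = 0.0365), 1 of 25 members against 5.64% of all probes (1.39% lower), and this rests on 2 libraries. Rats F101 and F102 had 604.4 and 545.3 CPM of Mrpl12 and the other 3 had 937, 970 and 1037 CPM, within the control range of 820 to 1155. The same 2 hearts were low in Slc25a4 (5338 and 4520 CPM, the others 7606 to 8338), Sdhb (18894 and 13506 CPM, the others 29743 to 32920) and Cox8b (968 and 891 CPM, the others 1627 to 2104). Their cardiomyocyte markers summed to 176470 and 66365 CPM against 268454 to 424345 in controls, and their fibroblast markers to 6696 and 3824 CPM against 2145 to 3483. The fat cell gene Adipoq had group means of 0.378 CPM in controls and 31.4 at 1 ppm. Their part in the result was not tested. Without F101 or without F102, 0 members were called, and 3 to 9 were called when any of the other 3 was left out. The calls over all probes moved in the same way. They numbered 3 without F101 and 21 without F102, against 213 without F103, 250 without F104 and 238 without F105. In all other comparisons below the top concentration, edgeR called 0 members, with 0 to 6 at an unadjusted p below 0.05, and DESeq2 called 0 except 1 in the ovary at 1 ppm of 1,2-DCB. Of all probes, 0.381% were called in the kidney at 10 ppm of 1,2-DCB, 0.215% in the kidney at 400 ppm of 1,4-DCB, and 0% to 0.0846% (0.0495% in liver at 10 ppm, 0.0435% in ovary at 250 ppm and 0.0434% in lung at 30 ppm of 1,2-DCB) in the rest of these comparisons.

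Whether the change differed between tissues was tested in a joint fit of the 5 tissues of a compound. At 500 ppm of 1,2-DCB the liver differed from heart in 15 of 26 members, from kidney in 16, from lung in 14 and from ovary in 16, against 38.7%, 40.1%, 38.9% and 41.4% of all probes. Slc25a13 and Slc25a24 differed between liver and each of the other tissues, by 0.79 to 1.17 log2 units towards lower in liver for Slc25a13 and by 2.16 to 2.51 towards higher for Slc25a24. Ndufv3 rose more in liver than in each of the others (by 0.48 to 0.97, adjusted p at most 0.000455), and Mrpl12 by 0.46 to 0.74. Ndufv3 also differed between heart and kidney (-0.44, adjusted p = 0.0179, 1 of 26 members against 3.99% of all probes) and between heart and ovary (-0.49, adjusted p = 0.00544, 1 against 4.94%), being lower in the heart. Kidney and ovary differed in Cox8b alone (-3.17, adjusted p = 0.0274, 1 against 6.48%), which rests on the kidneys described above and was lost with the rat as a block (-1.34, adjusted p = 0.481). Heart and lung, kidney and lung, and lung and ovary differed in 0 members (1.15%, 2.41% and 3.48% of all probes), with 2 or 3 at an unadjusted p below 0.05.

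With 1,4-DCB at 800 ppm, Sdhb in the ovary differed from each other tissue. Its change there exceeded that in lung by 0.77, in kidney by 0.75, in heart by 0.72 and in liver by 0.66 (adjusted p from 4.86e-05 to 0.000202). Sdhb was the 1 member called between heart and ovary (8.77% of all probes) and between kidney and ovary (8.92%). It was 1 of 3 called between liver and ovary (21.1%), with Timm22 higher and Tomm34 lower in liver, and 1 of 3 between lung and ovary (9.86%), with Atp5l and Tomm34 lower in lung. Heart and liver differed in Timm9 probe 10020 (-1.07, 14.8%) and heart and kidney in Slc25a27 (-2.67, adjusted p = 0.0499, 2.47%), both with group means below 10 CPM. Slc25a27 lay near 0, with control means of 0.729 CPM in heart and 0.301 in kidney on the shared scale. In each of these control groups 1 rat had 0 counts. The Slc25a27 call was lost with the rat as a block (adjusted p = 0.0762) and with DESeq2 size factors (adjusted p = 0.0503), while with that block 3 members were called between heart and liver, 2 between heart and ovary, and 1 each between heart and lung and between liver and lung. Heart and lung, kidney and liver, kidney and lung, and liver and lung differed in 0 members (0.705%, 11.6%, 2% and 15.3% of all probes), with 1 to 7 at an unadjusted p below 0.05.

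The isomers were given at matched concentrations at 1 and 10 ppm only. The difference of their changes was tested in the 5 tissues, 10 comparisons in all, and edgeR called 0 members in each (0% to 1.17% of all probes), with 0 to 6 at an unadjusted p below 0.05 and 0 called with DESeq2 size factors. The smallest p was that of Slc25a30 in the heart at 1 ppm, -0.47 for 1,2-DCB minus 1,4-DCB with a 95% interval from -0.79 to -0.14 (adjusted p = 0.159), a comparison that holds the 2 low hearts. The 0 ppm rats of the compounds differed in 1 member, Atp5l in the heart, by 0.25 (adjusted p = 0.0223; 2.95% of all probes). At their top concentrations, which differ, the liver values stand side by side: Slc25a13 -0.89 at 500 ppm of 1,2-DCB and -0.08 at 800 ppm of 1,4-DCB, Slc25a24 2.34 and -0.09, Mrpl12 0.83 and 0.53, Ndufv3 0.90 and 0.38, and Sdhb -0.14 and 0.28. For Sdhb the opposite signs hold on the main scale only, since the scale set from probes at 20 CPM or more gave 0.24 and 0.26.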

How the data were processed

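TempO-Seq Rat S1500+ v1.2 libraries were grouped by the compound, concentration and tissue in the labels. The authors deposited a table with a whole-number read count of every probe in each library, already adjusted for attenuation, with Bowtie 1.3.1 named for alignment per the submitters' processing notes; no source used here gives its settings or the build of the probes. Attenuation lowers the reads of abundant transcripts; in the deposited values 115 probes held only multiples of a step above 1, among them 2 members (Sdhb and Atp5c1), whose counting noise is then larger than the counts show. Levels are not compared between genes. Totals ran from 1.2 to 69.8 M counts, and since reads carry no molecular identifiers they bound counting error only. Of 399 libraries, 390 were used; no columns were identical.

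The tests used edgeR 4.0.16 under R 4.3.3 (robust quasi-likelihood fit, TMM, filterByExpr), in 10 fits of 1 tissue and compound with all 7 groups, which gave 60 comparisons with 0 ppm, and in joint fits for tissue, compound and control differences. A call is a Benjamini-Hochberg adjusted p below 0.05 over all probes tested. Alternatives were DESeq2 1.42.0, its size factors in edgeR, limma 3.58.1 voom, a minimum mean of 20 CPM, no minimum, the exposed group and controls alone, the 9 marked libraries, attenuated probes divided by their step, and each rat left out. Leaving out rats at 1 ppm in heart and 100 ppm in liver, and the shift of scale, were added after the data had been seen. The same rat number marks the same animal across tissues: over 20 tissue pairs the median correlation of deviations within a rat was 0.0531 to 0.113, against -0.0239 to -0.00734 between rats, so the rat was a block in an alternative joint fit. The fits were tested on simulated data.

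The members and lists were chosen with earlier results of these data known. Single-rat values are given for at most 8 called members per top-concentration comparison, those with the smallest p whose mean reached 10 CPM with or without exposure, and for every called member below the top; from the pathway lists at most 3 called genes were named, and some are not reported here. The markers of lung epithelium had no probe on the panel. Promoter windows are RefSeq's, GRCr8.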

Additional observations from a re-analysis of the deposited data

Results flagged for a closer look

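Of 84 groups examined for a rat that stands apart from the rest of its group by Dixon's test, 7 held 1. The groups were those of members called at a top concentration, with Cox8b in the kidney added although it was not called there. Chance flags about 1 group in 20, but with groups picked in this way the count cannot be set against that rate. Cox8b in the kidney gave 2 of the 7: control rat F8 of 1,2-DCB had 28.4 CPM with the next at 0.216, and control rat F1 of 1,4-DCB had 22.8 CPM with the next at 0.545. In the heart, Slc25a4 was low in control rat F2 of 1,2-DCB (5737 CPM, the next 7706) and in rat F601 at 500 ppm (8779 CPM, the next 10529). In the liver at 500 ppm of 1,2-DCB, Mrpl12 was high in rat F604 (81.3 CPM, the next 72.5) and Timm9 probe 10021 in rat F605 (5.21 CPM, the next 3.25). Timm9 probe 10020 was high in the liver of control rat F1 of 1,4-DCB (0.936 CPM, the next 0.504).

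The change at the top concentration differed between tissues by a test of the difference itself. The share of all probes called stands in brackets beside each count out of 26 members. With 1,2-DCB at 500 ppm this held for 15 members between heart and liver (38.7%) and 16 between kidney and liver (40.1%). It held for 14 between liver and lung (38.9%) and 16 between liver and ovary (41.4%). It held for 1 each between heart and kidney (3.99%), heart and ovary (4.94%), and kidney and ovary (6.48%). With 1,4-DCB at 800 ppm it held for 3 members between liver and ovary (21.1%) and 3 between lung and ovary (9.86%). It held for 1 each between heart and kidney (2.47%), heart and liver (14.8%), heart and ovary (8.77%), and kidney and ovary (8.92%).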

How the results depend on the processing

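No called change of a member reversed under any alternative that refits the test; the shift of scale, given above, turned the sign of 4 of 23 members in the 1,2-DCB liver, of which Ndufb8 was called. Elsewhere it turned members that were not called and lay near 0: 4 in the 1,2-DCB kidney, 2 each in the 1,4-DCB heart and kidney, and 1 each in the 1,2-DCB heart and lung. Counts of called members moved as follows. The filter at 20 CPM left fewer members to test and gave 6 in the 1,2-DCB liver at 500 ppm (17 before), 5 in the 1,4-DCB liver (9 before) and 2 in the 1,4-DCB lung (1 before). Using the exposed group and its controls alone gave 2 in the 1,2-DCB heart (1 before) and 3 in the 1,4-DCB ovary (5 before). Counts of 0 became 1 with limma voom in the 1,2-DCB lung and ovary at 500 ppm and with DESeq2 in the ovary at 1 ppm, and the count of 1 in the 1,4-DCB lung became 0 with the marked libraries. DESeq2 size factors gave 1 between heart and lung with 1,2-DCB (0 before) and, with 1,4-DCB, 0 between heart and kidney (1 before), 2 between heart and liver (1 before) and 1 between liver and lung (0 before). With the rat as a replicate block, the pairing gave 0 between kidney and ovary with 1,2-DCB (1 before) and, with 1,4-DCB, 0 between heart and kidney (1 before), 3 between heart and liver (1 before), 1 between heart and lung (0 before), 2 between heart and ovary (1 before) and 1 between liver and lung (0 before); the block moved no other count by over 1.5 times. Apart from the filter and the smaller fits, the cause was not tested.

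Leaving out 1 rat at a time gave 16 to 17 called members in the 1,2-DCB liver at 500 ppm, 2 to 2 at 250 ppm and 1 to 3 at 100 ppm. It gave 2 to 5 in the 1,2-DCB kidney, 0 to 1 in its heart at 500 ppm, 0 to 9 in its heart at 1 ppm, 0 to 1 in its lung and 0 to 0 in its ovary. With 1,4-DCB it gave 7 to 10 in liver at 800 ppm and 0 to 0 at 400 ppm, 1 to 3 in heart, 0 to 1 in kidney, 0 to 2 in lung and 1 to 7 in ovary. Counts moved by over 1.5 times in the 1,4-DCB ovary without F602 (1) and without F603, F604 or control F5 or F7 (3). They did so in the 1,2-DCB heart without F602 or F604 (0), and at 1 ppm without F101 or F102 (0), F103 (5), F104 (3) or F105 (9). At 1 ppm the calls over all probes also ranged from 3 without F101 to 250 without F104. The others were the 1,2-DCB kidney without F604 (2), its liver at 100 ppm without F402, F403 or F404 (1), its lung without F604 (1), and with 1,4-DCB the heart without F601, F603 or F604 (1), the kidney without F602 (1) and the lung without F605 (0) or control F1 (2). Depth limits members near 0 CPM, such as Slc25a14, for which a change was not detectable.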
